A study of Mus musculus with 32 samples.

Results

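The genes described here are the axon guidance ligands and receptors of the mouse: semaphorins of classes 3 to 7, plexins, neuropilins, Slits, Robos, ephrins, Eph receptors, netrins and the netrin receptors Dcc and Unc5. They were taken by symbol from the protein-coding genes of the GRCm38 annotation, which gave 69 genes, of which 68 were in the count table among 51912 gene identifiers. Ntn3 was not analysed here. The 68 members were 20 semaphorins, 9 plexins, 2 neuropilins, 3 Slits, 4 Robos, 8 ephrins, 14 Eph receptors, 3 netrins and 5 netrin receptors. The choice by symbol used no measured value.

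Nuclear RNA was sequenced from 32 libraries of sorted nuclei of the longitudinal muscle layer with its myenteric plexus, the nerve network that drives gut movement. All mice were C57BL/6 kept specific pathogen-free, and all received AAV9-CaMKII-EGFP-KASH by vein, a virus that places green fluorescent protein (EGFP) on the nuclear envelope of cells in which the CaMKII promoter is active. After 5 weeks EGFP-positive nuclei, called neuronal in the labels, and EGFP-negative nuclei, called non-neuronal, were sorted from colon and from small intestine (SI). Mice were housed at the University of Bern or at the Francis Crick Institute, so facility, segment and sort gave 8 groups of 4 libraries: Bern and Crick colon neuronal, Bern and Crick SI neuronal, and the 4 matching non-neuronal groups. The ages and sexes of the mice were not given in the sources used here. The EGFP label follows the virus and its promoter, so neurons that did not carry it would be among the EGFP-negative nuclei. The labels do not say that the 4 libraries of a group came from separate mice, and p-values therefore measure the spread between these libraries, which may be technical.

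Guidance proteins were named for their work on growing axons, where a secreted or membrane-bound cue attracts or repels the growth cone through a receptor on its surface. Secreted class 3 semaphorins act mostly through neuropilins paired with class A plexins, while Sema3e binds Plxnd1 directly. Slits act through Robos, ephrins through Eph receptor tyrosine kinases, and netrins through Dcc and the Unc5 family. In the gut these systems take part in the migration of neural crest cells, the layout of the plexus and the growth of vessels, and many members are also made by muscle, endothelium and connective tissue.

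The 16 Bern libraries held 2394481 to 4618379 counts each and the 16 Crick libraries 3788120 to 8350833. Levels are in CPM, each count divided by the scaled total of its library. The summed level of 8 neuronal marker genes was 1770 to 4295 CPM in the neuronal libraries and 40.4 to 1378 CPM in the non-neuronal ones, so the sorts did not overlap. Within the non-neuronal libraries the neuronal sum was highest in Bern colon (639 to 1378 CPM) and in Bern SI library 1 (655 CPM, against 40.4 to 81.8 CPM in the other 3 of that group). The share of mitochondrially encoded counts reached 23.6% in Crick SI non-neuronal library 2 and 16% in Crick SI neuronal library 2. The 6 libraries called in doubt below are Bern colon non-neuronal 1 and 2, Bern SI non-neuronal 1, Crick colon non-neuronal 3, Crick SI non-neuronal 2 and Crick SI neuronal 2, as earlier results of these data marked them. In these bulk libraries fewer cells of a type and less RNA per cell cannot be told apart.

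Of the 68 members, 58 had at least 1 promoter in the RefSeq table (GRCm38.p6, 250 bases before to 50 bases after the start), with 74 entries in all. The promoters of Sema3e and Epha4 are shown because these genes passed between colon and SI neurons in both facilities, in opposite directions. Unc5d, on chromosome 8 from 28646717 to 29219636 (minus strand), had no entry. Sema3e spans 14025276 to 14256689 on chromosome 5 (plus strand) and Epha4 spans 77367185 to 77515088 on chromosome 1 (minus strand), in GRCm38. The Sema3e window lies at chr5:14025026-14025325 on the plus strand and the Epha4 window at chr1:77515039-77515338 on the minus strand, each 300 bases, printed 5′ to 3′.
Sema3e promoter: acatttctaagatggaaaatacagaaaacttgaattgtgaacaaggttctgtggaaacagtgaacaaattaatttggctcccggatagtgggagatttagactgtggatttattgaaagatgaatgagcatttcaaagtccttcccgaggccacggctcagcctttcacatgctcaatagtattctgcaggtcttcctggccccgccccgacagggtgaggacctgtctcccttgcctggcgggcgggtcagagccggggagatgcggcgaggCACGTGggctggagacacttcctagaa
Epha4 promoter: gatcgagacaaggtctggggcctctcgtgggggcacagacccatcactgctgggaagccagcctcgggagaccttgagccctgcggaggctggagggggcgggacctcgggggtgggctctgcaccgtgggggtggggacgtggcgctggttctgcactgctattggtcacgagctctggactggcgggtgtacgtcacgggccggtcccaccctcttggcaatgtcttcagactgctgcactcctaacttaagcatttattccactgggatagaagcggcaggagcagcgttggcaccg
Capitals mark matches, on either strand, to 3 motifs searched: GCGTG (the core of aryl hydrocarbon receptor sites), CACGTG (an E-box) and ATGCAAAT (an octamer), of which the first and second can overlap in sequence. A match is a description of these letters only. The Sema3e window held 1 match, to CACGTG, and the Epha4 window held none. Among 32851 promoters of this length 32.4% held GCGTG, 7.15% CACGTG and 1.74% ATGCAAAT, and of the 74 member promoters 29 held GCGTG and 0 ATGCAAAT. GC content was 50.7% in the Sema3e window and 64% in the Epha4 window, against a median of 52.7% over all promoters.

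Guidance genes were well represented in these nuclei, and the list of the most abundant members differed between the sorts. Length was taken as the union of all annotated exons of a gene. Genes with a long union, such as Slit2 (25433 bases, median 424 CPM in neuronal libraries), therefore rank lower than in CPM. Per kilobase of exon, the highest mean levels in neuronal nuclei were those of Plxnb1 (55.6 CPM per kb), the receptor for Sema4d, and Nrp2 (44.8), a co-receptor for class 3 semaphorins. Plxnb1 and Nrp2 were followed by the transmembrane semaphorin Sema6d (27.1), Plxna3 (25.2), Epha5 (25.0), Slit3 (23.0) and the netrin receptor Unc5a (20.5). In non-neuronal nuclei Nrp2 also led with 49.1 CPM per kb, followed by Epha7 (24), Sema6d (18.9), Sema6a (16.5), Slit3 (16.3) and the secreted semaphorin Sema3c (12.4). At the other end Efna2, Efna3, Efna4, Ntn5 and Sema3g were below 5 CPM in every group mean and were removed by the filter on low counts in every fit. Another 9 members were tested and passed in none of the 13 comparisons, namely Efna5, Efnb1, Ephb2, Ntn4, Plxnb2, Plxnc1, Robo2, Sema4a and Sema4b. The remaining 54 passed in at least 1. The map of group means shows these levels side by side.

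**Figure D1:**
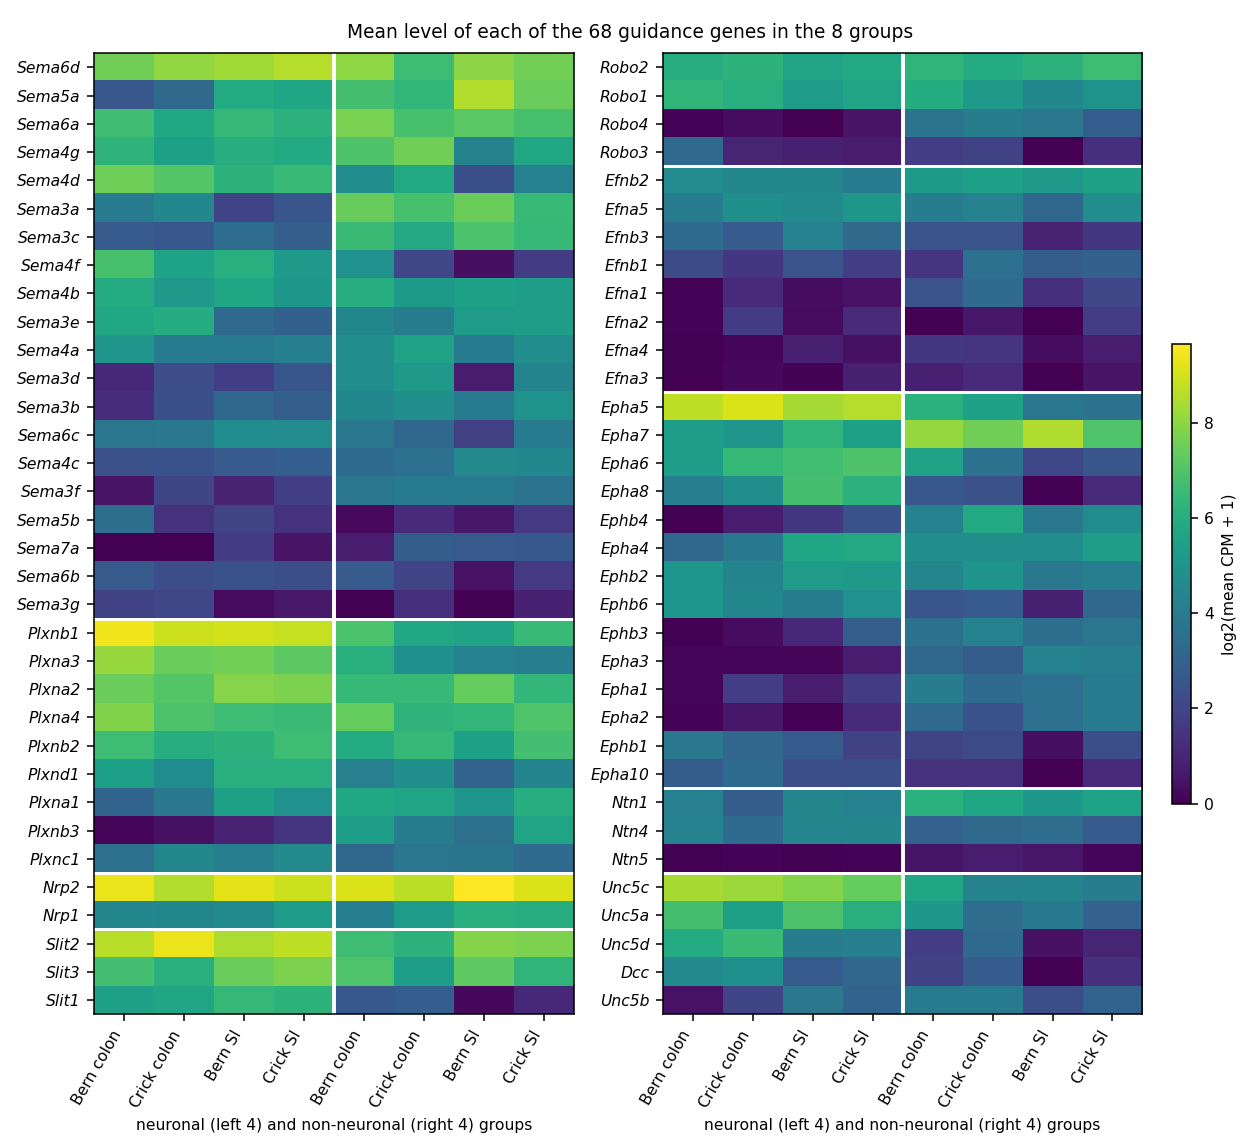
Mean level of each of the 68 guidance genes in the 8 groups, as log2(mean CPM + 1), with families separated by white lines, the 4 neuronal groups at the left and the 4 non-neuronal groups at the right of each panel. Plxnb1, Epha5, Slit2 and Unc5c are brighter in the neuronal columns, Sema3a, Sema3c and Epha7 in the non-neuronal ones, and Nrp2 is bright in all 8.

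The first comparison asked which guidance genes mark the neuronal nuclei, with the 4 strata of facility and segment averaged. Of the 63 members tested, 24 were higher and 23 lower in neuronal nuclei at an adjusted p under 0.05 (edgeR quasi-likelihood test), where 43.5% of all 21521 genes tested passed. The median log2 fold change was 0.22 over the 63 members and -0.01 over all genes. In 15 members, 7 higher and 8 lower, the neuronal and non-neuronal libraries did not overlap in any of the 4 strata, against 5.81% of all genes. Taken stratum by stratum, 13 members passed in 1 direction in all 4 strata, against 6.56% of all genes. The 7 higher ones were Epha5, Plxna3, Plxnb1, Sema4f, Slit1, Unc5c and Unc5d, and the 6 lower ones were Epha3, Epha7, Plxnb3, Robo4, Sema3a and Sema3c. With limma-voom this count was 20. Within strata 13 were higher and 19 lower in Bern colon (25.2% of all genes passed), 20 and 14 in Bern SI (30.1%), 12 and 15 in Crick colon (18.6%), and 15 and 8 in Crick SI (11.6%). Dcc, Epha2, Epha8, Epha10, Ephb3, Ephb4, Robo3, Robo4 and Sema7a each had a group with no counts. Efna1, Epha1, Epha3, Plxnb3, Sema5b and Slit1 each had a group with at most 1 count per library. The averaged fold changes of all these members below are therefore no measure of size.

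**Figure D2:**
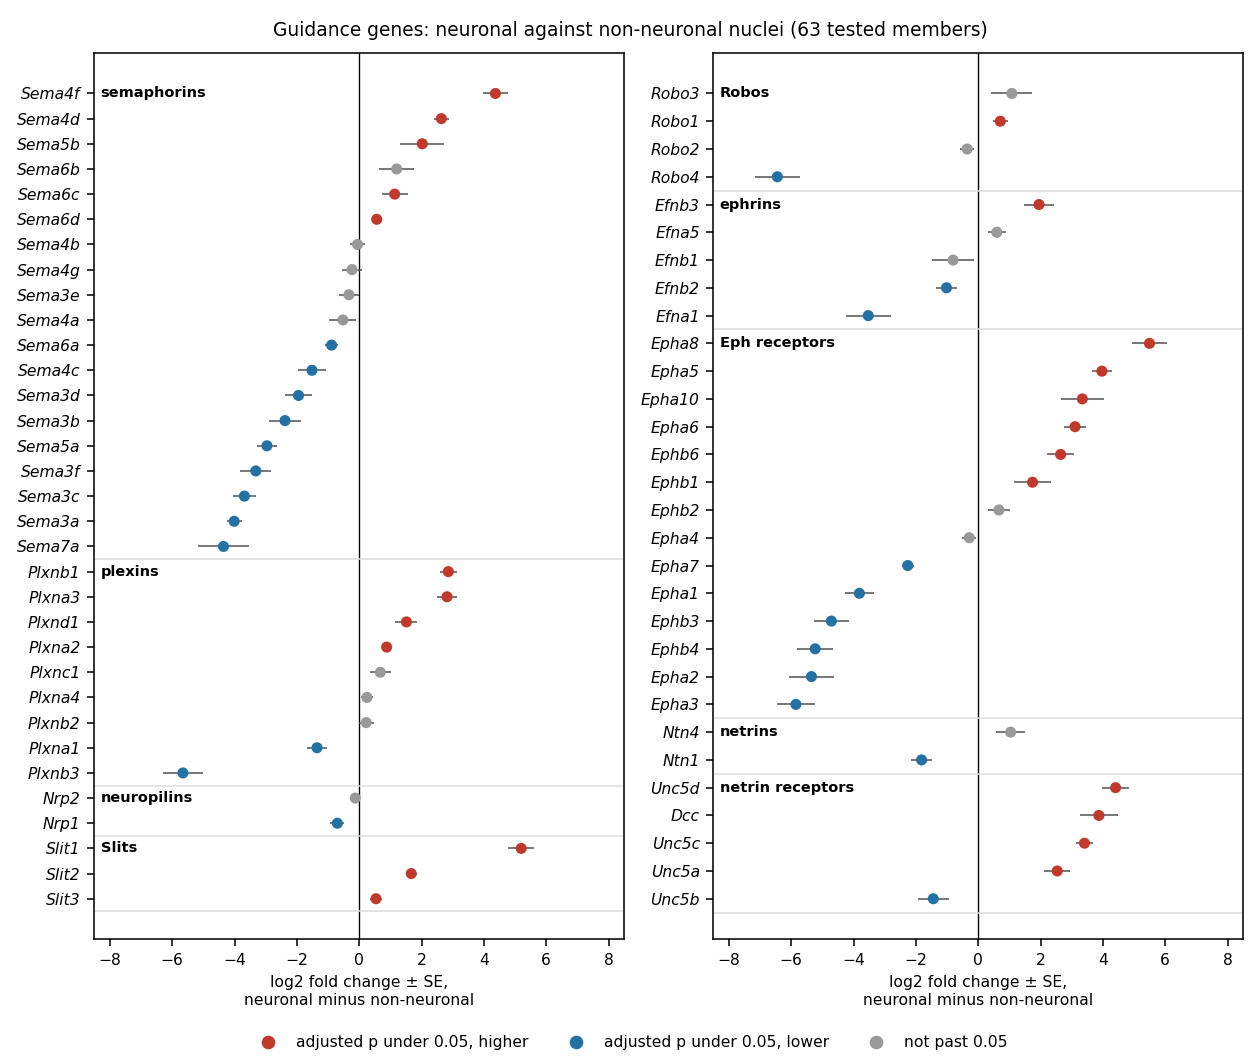
Log2 fold change with its standard error for the 63 tested guidance genes, neuronal minus non-neuronal nuclei, grouped by family, with red for higher, blue for lower and grey for not past an adjusted p of 0.05. All 3 Slits and 4 of 5 netrin receptors lie to the right of 0, and 5 of the class 3 semaphorins lie to the left in blue.

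Of 19 semaphorins tested, 5 were higher and 9 lower in neuronal nuclei. Of the class 3 members, which are secreted, 5 were lower: Sema3a, a repellent of axons, fell by 4.01 ± 0.24 (log2, SE), Sema3c by 3.68 ± 0.36, Sema3f by 3.32 ± 0.50, Sema3b by 2.38 ± 0.51 and Sema3d by 1.95 ± 0.44 (adjusted p of 2.57e-16 to 0.000373). Sema3a had a lowest, median and highest level of 58.7, 130 and 267 CPM over the 16 non-neuronal libraries and 0.872, 7.14 and 27.7 CPM over the 16 neuronal ones, with no overlap. Sema3c was between 31.6 and 210 CPM in non-neuronal and between 0.254 and 22.4 CPM in neuronal libraries, again without overlap. Sema5a (-2.96 ± 0.33, adjusted p = 1.30e-09) and Sema7a (-4.36 ± 0.81, adjusted p = 3.91e-05), a membrane-anchored semaphorin, were lower too, as were Sema4c and Sema6a. The transmembrane proteins Sema4f and Sema4d were higher. Sema4f was 20.8 to 183 CPM (median 49.2) in neuronal and 0 to 83.2 CPM (median 2.13) in non-neuronal libraries and rose by 4.37 ± 0.39 (adjusted p = 8.19e-12). The 2 highest non-neuronal values of Sema4f, 25.2 and 83.2 CPM, were in Bern colon libraries 1 and 2, which also had the highest neuronal marker sums of that group (1378 and 1279 CPM), and the part of those nuclei in the value was not tested. Sema4d rose by 2.64 ± 0.24 (adjusted p = 1.35e-11) from a median of 22.2 to 96.5 CPM, and Sema5b, Sema6c and Sema6d by 2.02 ± 0.70, 1.14 ± 0.41 and 0.56 ± 0.16. The call of Sema5b was lost without Bern colon neuronal 3 or Bern SI neuronal 4 (adjusted p of 0.0622 to 0.103), and that of Sema6c without Crick colon neuronal 4 or Crick SI neuronal 2 (0.0612 to 0.0627).

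Sema3e, a secreted cue known for vascular and neuronal patterning through Plxnd1, had no difference between the sorts when the strata were averaged (-0.33 ± 0.31, adjusted p = 0.428), and the strata went in opposite directions. In Crick colon it was 47.9, 47.1, 34.7 and 116 CPM in neuronal and 17.1, 21.7, 12.3 and 11.5 CPM in non-neuronal nuclei, higher by 1.96 ± 0.64 (adjusted p = 0.0279) with no overlap. In Bern colon the values were 20.2, 47.6, 65.4 and 83.0 against 34.8, 10.4, 21.8 and 16.2 CPM, a difference of 1.38 ± 0.64 that did not pass (adjusted p = 0.108). In Crick SI the order was the opposite, 7.85, 3.99, 6.56 and 9.71 CPM in neuronal and 36.8, 25.2, 36.3 and 62.7 CPM in non-neuronal nuclei, lower by 2.52 ± 0.66 (adjusted p = 0.00787) with no overlap. In Bern SI it was 3.36, 14.7, 15.1 and 2.32 against 34.1, 56.2, 63.3 and 3.32 CPM, lower by 2.15 ± 0.66 (adjusted p = 0.0125), with 1 non-neuronal library as low as the neuronal ones. The Crick colon call was lost without Crick colon non-neuronal 1, 3 or 4 or Crick colon neuronal 4 (adjusted p of 0.0569 to 0.144) and without the libraries in doubt (0.0746), and the Bern SI call was lost with limma-voom (0.138). Sema4g was the other member with opposite calls, higher by 1.73 ± 0.65 in Bern SI and lower by 2.10 ± 0.65 in Crick colon. In the Crick colon non-neuronal libraries Sema4g was 159, 54.3, 199 and 343 CPM. The epithelial marker sum there was 2315, 3226, 6414 and 8939 CPM, and the part of those cells in the values was not tested. The Bern SI call of Sema4g was lost without any of 9 libraries (adjusted p of 0.0554 to 0.161), and its Crick colon call without Crick colon non-neuronal 4 or Crick colon neuronal 1 or 2 (0.0712 to 0.0962).

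Of the plexins, the semaphorin receptors, 9 were tested, and 4 were higher and 2 lower in neuronal nuclei. Plxnb1 was 210 to 1042 CPM (median 522) in neuronal and 25.3 to 211 CPM (median 54.2) in non-neuronal libraries and rose by 2.86 ± 0.28 (adjusted p = 9.54e-11), with no overlap in any of the 4 strata. Plxna3, which pairs with neuropilins, was 96.0 to 324 CPM against 0.884 to 101 CPM and rose by 2.82 ± 0.31 (adjusted p = 1.68e-09), also without overlap in each stratum. Plxnd1, the receptor for Sema3e, rose by 1.52 ± 0.35 over the averaged strata (adjusted p = 0.000505) from a mean of 17.7 to 49.4 CPM, and Plxna2 by 0.88 ± 0.16. Within strata Plxnd1 passed in Bern SI alone. In Crick colon it was 25.8, 15.6, 35.7 and 22.9 CPM in neuronal and 15.8, 22.5, 26.1 and 42.4 CPM in non-neuronal libraries. Plxnb3 fell by 5.66 ± 0.63 (adjusted p = 1.56e-09), from 0 to 121 CPM in non-neuronal to at most 3.48 CPM in neuronal libraries, and Plxna1 fell by 1.35 ± 0.31. The co-receptor Nrp2 was 314 to 1228 CPM in neuronal and 321 to 1127 CPM in non-neuronal libraries and did not pass (-0.13 ± 0.14, adjusted p = 0.517). Nrp1 fell by 0.70 ± 0.23 (adjusted p = 0.011), a call lost without the filter on low counts (0.0809).

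All 3 Slits, the secreted ligands of Robos, were higher in neuronal nuclei. Slit1 was 18.9 to 139 CPM (median 59.0) in neuronal and 0 to 15.2 CPM (median 1.57) in non-neuronal libraries, with no overlap, and rose by 5.20 ± 0.41 (adjusted p = 3.67e-13). Slit2 had 263 to 911 CPM (median 424) in neuronal and 39.4 to 343 CPM (median 136) in non-neuronal libraries, and rose by 1.67 ± 0.17 (adjusted p = 2.44e-10). Slit3 rose by 0.54 ± 0.20 (adjusted p = 0.0233), a call lost with DESeq2 (0.074), with another size factor (0.0709), without the filter (0.0545) and without any 1 of 5 libraries (0.0603 to 0.112): Bern SI non-neuronal 2, Bern SI neuronal 1, Crick SI non-neuronal 1 and 3 and Crick SI neuronal 2. The Robos did not move together. Robo1 rose by 0.71 ± 0.24 (adjusted p = 0.0143, and 0.179 without the libraries in doubt), Robo2 (-0.36 ± 0.23, adjusted p = 0.226) and Robo3 (1.08 ± 0.66, adjusted p = 0.197) did not pass, and Robo4, the Robo of endothelium, fell by 6.45 ± 0.71 (adjusted p = 2.57e-09). Robo4 was at most 0.704 CPM in any neuronal library and had no count in Bern SI neuronal nuclei. There its level was at least 64.8-fold lower than in the matching non-neuronal nuclei (floor of 3 counts over the group). In Crick SI it fell by 3.86 on the log2 scale (adjusted p = 0.0259), a call lost without any 1 of 4 libraries (0.0688 to 0.0965). The 6 blood endothelial markers summed to 0 to 16 CPM in neuronal and 19.4 to 303 CPM in non-neuronal libraries, and their part in the Robo4 difference was not tested.

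Eph receptors, tyrosine kinases that bind ephrins on neighbouring cells, divided evenly: of 14 tested, 6 were higher and 6 lower. Epha8 rose by 5.49 ± 0.57 (adjusted p = 7.79e-10), Epha5 by 3.97 ± 0.33 (adjusted p = 1.48e-12), Epha10 by 3.34 ± 0.70, Epha6 by 3.11 ± 0.35, Ephb6, a member without kinase activity, by 2.64 ± 0.44 and Ephb1 by 1.74 ± 0.58. Epha5 was the most abundant in counts, 248 to 779 CPM (median 375) in neuronal and 1.18 to 126 CPM (median 31.5) in non-neuronal libraries, with no overlap. Epha8 had no count in any Bern SI non-neuronal library and 153, 83.9, 41.7 and 159 CPM in the matching neuronal ones, at least 460-fold higher. In Crick SI, where each non-neuronal library had counts, Epha8 rose by 5.77 on the log2 scale (adjusted p = 0.000131). Epha3 fell by 5.85 ± 0.61 (adjusted p = 3.42e-10), Epha2 by 5.35 ± 0.71, Ephb4 by 5.23 ± 0.59, Ephb3 by 4.71 ± 0.57, Epha1 by 3.81 ± 0.47 and Epha7 by 2.26 ± 0.20. Epha3 did not exceed 1.16 CPM in any neuronal library and was 1.28 to 47.7 CPM in the non-neuronal ones, without overlap. Epha7 differed in another way, since it was present in both sorts, at 19.1 to 110 CPM in neuronal and 81.5 to 469 CPM in non-neuronal nuclei. Among the ephrins, of 5 tested, Efnb3 rose by 1.95 ± 0.48 (adjusted p = 0.00106) while Efna1 (-3.53 ± 0.73) and Efnb2 (-1.02 ± 0.35) were lower, the last not so without Bern colon non-neuronal 3 (0.0508).

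Netrin receptors were higher in neuronal nuclei in 4 of 5 cases. Unc5d was 11.3 to 110 CPM (median 31.9) in neuronal and 0 to 21.8 CPM (median 0.943) in non-neuronal libraries and rose by 4.40 ± 0.43 (adjusted p = 7.18e-11). Unc5c was 104 to 445 CPM against 3.32 to 84.5 CPM, with no overlap, and rose by 3.41 ± 0.27 (adjusted p = 3.44e-13). Dcc, the receptor through which netrin attracts, rose by 3.87 ± 0.60 (adjusted p = 1.95e-06), with a median of 9.86 CPM in neuronal libraries against 1.47 CPM in the others. Unc5a rose by 2.53 ± 0.42 (adjusted p = 5.01e-06). Unc5b, the Unc5 receptor of vessels, fell by 1.44 ± 0.49 (adjusted p = 0.0163), a call lost without Bern SI non-neuronal 4 (0.101). Of the ligands, Ntn1 was lower in neuronal nuclei (-1.82 ± 0.33, adjusted p = 2.25e-05), with a median of 13.4 against 39.2 CPM, and Ntn4 did not pass (1.04 ± 0.46, adjusted p = 0.0631).

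Other genes of the pathway were taken from a list. Of 11 further cues, co-receptors and adhesion partners tested, 7 were higher and 2 lower in neuronal nuclei, and of 35 transducers inside the cell 15 were higher and 7 lower, where 43.5% of all genes passed. Among the cues Dscam (4.86 ± 0.27) and Cntn2 (4.05 ± 0.52), cell adhesion molecules of axons, rose most, and Rgma (-4.40 ± 0.42) and Flrt2 (-1.08 ± 0.31) fell. Among the transducers, Crmp1 (4.76 ± 0.25) and Dpysl5 (3.78 ± 0.38), members of the family that relays semaphorin signals to microtubules, rose most, and Dock1 (-2.81 ± 0.30) and Mical2 (-1.29 ± 0.16) fell.

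The second comparison set colon against SI within neuronal nuclei, over both facilities. Of 55 members tested, 7 were higher and 10 lower in colon neurons, against 5.51% of all 17419 genes, and the median log2 fold change was -0.41 over members and -0.01 over all genes. In 7 members the colon and SI libraries did not overlap in either facility, against 2.41% of all genes. Those higher in colon were Sema3e, Unc5d and Sema3a. Those lower were Epha4, Sema5a, Sema6d and Ephb4, the last with no count in Bern colon and 1 to 21 counts per Bern SI library. The plot of values by library shows the first 5 of these together with Epha8.

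Sema3e was the member with the largest rise. It was 20.2, 47.6, 65.4 and 83.0 CPM in Bern colon neurons against 3.36, 14.7, 15.1 and 2.32 CPM in Bern SI neurons, and 47.9, 47.1, 34.7 and 116 against 7.85, 3.99, 6.56 and 9.71 CPM in Crick. Every colon library was thus above every SI library in each facility, and the rise was 2.81 ± 0.42 (adjusted p = 0.000165). Unc5d followed, with 56.5, 66.1, 42.1 and 75.7 CPM in Bern colon and 16.8, 11.3, 21.6 and 14.8 CPM in Bern SI neurons. In Crick it was 86.8, 97.2, 87.0 and 110 against 12.5, 15.3, 21.2 and 19.7 CPM, and the rise over both was 2.14 ± 0.24 (adjusted p = 5.16e-06). Sema3a, low in neurons of either segment, was 19.9, 8.75, 20.04 and 8.29 CPM in Bern colon and 25.1, 27.7, 13.5 and 18.5 CPM in Crick colon neurons, and 0.872 to 4.13 and 3.93 to 5.99 CPM in the SI neurons, a rise of 2.11 ± 0.43 (adjusted p = 0.00369). These 3 kept their calls in each fit without 1 library and in every other setting tried.

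The other 4 members that rose did so by less firm calls. Dcc rose by 1.83 ± 0.49 (adjusted p = 0.026), from a mean of 6.90 to 25.1 CPM, a call lost without any 1 of 6 libraries (0.0511 to 0.0967): Bern colon 2, Bern SI 3, Crick colon 2 and Crick SI 1, 2 and 4. The Dcc call was also lost with limma-voom (0.106) and with all 32 libraries in one fit (0.131). Crick SI 2 was the only neuronal library in doubt, so leaving out those in doubt is the fit without it (0.0546). Sema4d rose by 0.87 ± 0.24 (adjusted p = 0.0319), Plxna4 by 0.73 ± 0.21 (0.044) and Unc5c by 0.65 ± 0.19 (0.0464). Sema4d lost its call without any 1 of 10 of the 16 libraries (0.0509 to 0.0765), all but Bern colon 2 and 4, Bern SI 2, Crick colon 1 and 2 and Crick SI 2. Plxna4 lost it without any of 13 (0.0511 to 0.0909), all but Bern colon 2, Bern SI 1 and Crick SI 2, and Unc5c without any of 13 (0.05 to 0.102), all but Bern colon 3, Crick colon 3 and Crick SI 3. With all 32 libraries in one fit Sema4d (0.0979), Plxna4 (0.0911) and Unc5c (0.321) were also lost. Sema4d was lost with limma-voom as well (0.057), and Unc5c without the filter (0.0529).

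Among the genes lower in colon neurons the Eph receptors were the largest family, with 5 of 11 tested lower and 0 higher. Epha4, a receptor for both ephrin classes, was 5.73, 9.47, 9.13 and 9.59 CPM in Bern colon and 34.6, 50.6, 51.7 and 66.5 CPM in Bern SI neurons. In Crick it was 17.6, 11.2, 14.7 and 11.6 against 70.2, 67.2, 51.3 and 34.5 CPM, and it fell by 2.35 ± 0.28 over both (adjusted p = 1.01e-05) with no overlap in either. Epha8 was 8.402, 34.7, 18.01 and 4.41 CPM in Bern colon and 153, 83.9, 41.7 and 159 CPM in Bern SI neurons, and 18.2 to 42.4 against 39.4 to 142 CPM in Crick, where the groups overlapped. It fell by 2.17 ± 0.40 (adjusted p = 0.00141). Epha6 fell by 0.98 ± 0.24 (adjusted p = 0.0177, and 0.31 with all 32 libraries in one fit). Ephb3 (-5.01 ± 0.96) and Ephb4 (-4.45 ± 0.94) were called from group means of at most 6.55 and 4.40 CPM. Neither had a count in Bern colon neurons, so these fitted values are no measure of size.

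Sema5a, a transmembrane semaphorin with thrombospondin repeats, was 0.382, 7.53, 0 and 13.0 CPM in Bern colon and 80.1, 55.5, 43.2 and 64.2 CPM in Bern SI neurons. In Crick it was 6.29 to 15.6 against 44.0 to 56.8 CPM, and the fall over both was 3.05 ± 0.52 (adjusted p = 0.000721). Unc5b fell by 3.16 ± 0.69 (adjusted p = 0.00669) and was 0, 0.243, 0 and 1.296 CPM in Bern colon against 4.25 to 21.6 CPM in Bern SI neurons, but 1.60 to 6.45 against 3.00 to 11.6 CPM in Crick. Slit3 fell by 1.21 ± 0.25 (adjusted p = 0.00426). Plxna1 fell by 1.85 ± 0.45 (0.0147), a call lost without Bern SI 1 (0.0605) and with limma-voom (0.0595). Sema6d fell by 0.67 ± 0.17 (0.0222), a call lost without Crick colon 3 or Crick SI 2 (0.0546 to 0.0563). The Sema6d call was also lost without the filter (0.0678) and with all 32 libraries in one fit (0.137). The fit without the libraries in doubt is here the fit without Crick SI 2 (0.0546). Plxnd1, the receptor of Sema3e, did not pass in this comparison (-1.07 ± 0.33, adjusted p = 0.0561).

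Markers of another cell type moved with the segment in the neuronal sort. Interstitial cells of Cajal pace the contractions of the gut, and their 4 markers summed to 263 to 469 CPM in the 8 colon and 659 to 2318 CPM in the 8 SI neuronal libraries. Of them Kit was 0.254 to 19.2 CPM in Bern colon and 82.2 to 598 CPM in Bern SI neuronal nuclei, and 2.56 to 15.6 against 355 to 565 CPM in Crick. Ano1 was 0 to 1.46 against 98.9 to 698 CPM and 1.63 to 8.60 against 285 to 477 CPM. Prkcq was 0 to 0.486 against 36.5 to 234 CPM and 0 to 1.58 against 113 to 230 CPM. The fourth, Etv1, made up most of the colon neuronal sum. Its mean was 382 of 391 CPM in Bern and 304 of 316 CPM in Crick. The Etv1 means were 539 and 510 CPM in SI neuronal nuclei, and 163 and 86.4 CPM in colon non-neuronal nuclei. Mitochondrially encoded counts also moved, with 0.423% to 1.39% in colon and 2.75% to 16% in SI neuronal libraries. The part of either in the genes lower in colon neurons was not tested. The neuronal marker sum was 2060 to 4091 CPM in colon and 1770 to 4295 CPM in SI neuronal libraries, so the segments overlapped.

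**Figure D3:**
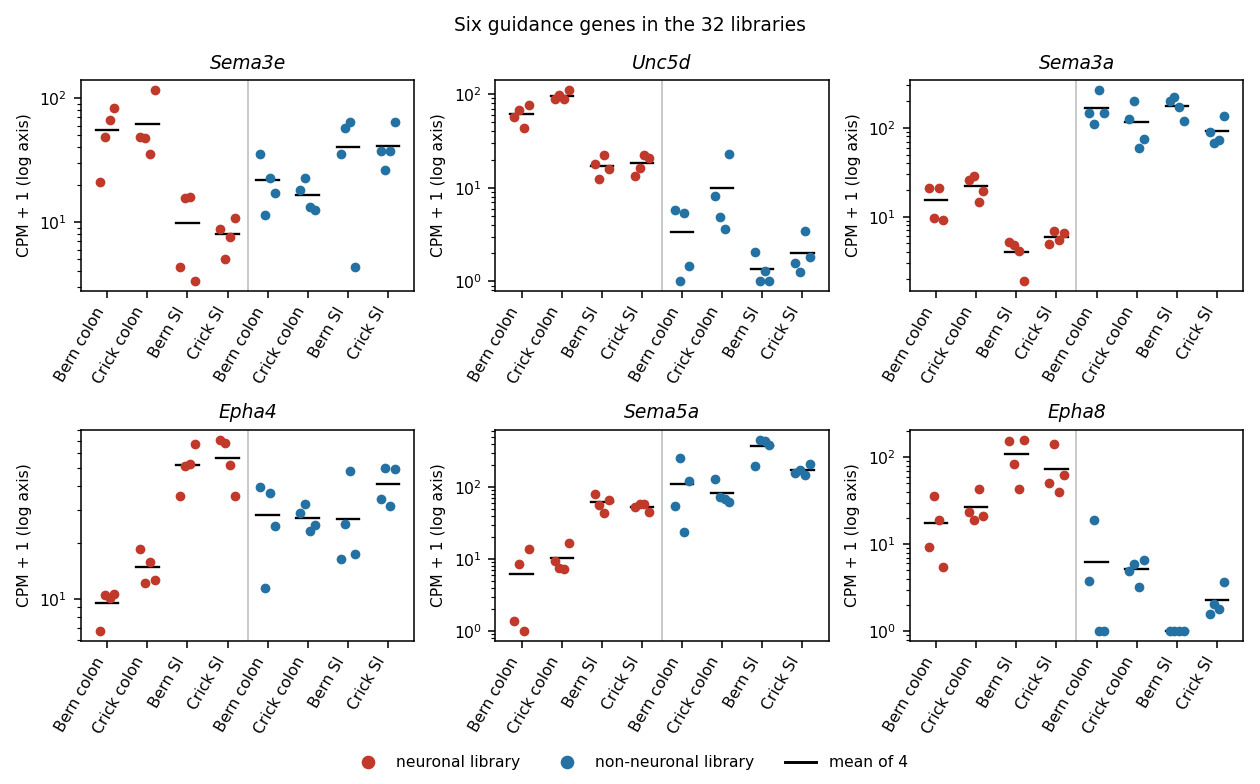
Level of Sema3e, Unc5d, Sema3a, Epha4, Sema5a and Epha8 in each of the 32 libraries, as CPM + 1 on a log axis, with red points for neuronal libraries, blue points for non-neuronal libraries and a black line at the mean of 4. In the neuronal groups the upper 3 genes are higher in colon than in SI and the lower 3 are lower, while in the non-neuronal groups Sema3e has its higher means in SI.

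Each facility was also tested alone. In Bern 5 members were higher and 7 lower in colon neurons (4.17% of all genes passed), and in Crick 2 were higher and 2 lower (0.913%). Sema3e, Unc5d and Epha4 passed in both facilities: Sema3e at 2.56 ± 0.59 in Bern (adjusted p = 0.0181) and 3.07 ± 0.60 in Crick (0.00863), Unc5d at 1.85 ± 0.34 (0.00362) and 2.43 ± 0.35 (0.000387), and Epha4 at -2.63 ± 0.41 (0.000681) and -2.07 ± 0.39 (0.00691). The fourth call in Crick was Slit3 (-1.69 ± 0.36, adjusted p = 0.0169), lost without Crick colon 1, 2 or 3 or Crick SI 2 (0.0559 to 0.127). The Bern call of Sema3e was lost without Bern SI 1 (0.0512), and the Bern count fell from 12 to 7 without Bern colon 1, Bern colon 3 or Bern SI 1, and to 6 with limma-voom. The difference between facilities in the segment effect was tested itself and passed for 0 of 55 members (edgeR; 0 with DESeq2 and with limma-voom), with 2 members at an unadjusted p under 0.05, Unc5b and Ephb6, and 0.00574% of all genes passed.

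In non-neuronal nuclei the segments differed in a partly different set of members. Among the members called, 5 had also passed between colon and SI neurons. Dcc, Sema4d and Sema5a did so in the same direction, and Epha6 and Epha8 in the opposite one. Of 61 tested, 10 were higher and 4 lower in colon, against 9.32% of all 19164 genes, with a median of 0.20 over members and 0.02 over all genes. Slit2 fell by 1.45 ± 0.26 (adjusted p = 0.00147), at 130, 110, 83.4 and 75.3 CPM in Bern colon against 343, 251, 198 and 142 CPM in Bern SI and 39.4 to 115 against 168 to 230 CPM in Crick, with no overlap in either. Sema5a fell by 1.48 ± 0.35 (0.0109) and Nrp1 by 1.46 ± 0.36 (0.0126). Nrp2 fell by 0.59 ± 0.18 (0.0459), a call lost without any 1 of 12 libraries (0.0527 to 0.133), that is, all but Bern SI 2, 3 and 4 and Crick colon 2. The Nrp2 call was also lost with DESeq2 (0.0625), another size factor (0.0677), no filter (0.0857), all 32 libraries in one fit (0.0907) and without the libraries in doubt (0.41). Of the 10 that rose, Epha8, Dcc and Robo3 had no count in any Bern SI library, so their fitted values (4.61 ± 1.27, 4.29 ± 1.21 and 3.61) are no measure of size. The others were Slit1 (3.58 ± 0.89), Sema4f (3.38 ± 0.80), Sema3d (2.90 ± 0.61), Epha6 (2.44 ± 0.71), Sema4g (2.19 ± 0.51), Epha5 (2.18 ± 0.60) and Sema4d (2.06 ± 0.46), with adjusted p of 0.0043 to 0.033. Slit1 had 0, 1, 0 and 1 counts in the Bern SI libraries and Sema4f 2, 0, 1 and 1, so their sizes are poorly set. With limma-voom the calls of Epha8 (0.136), Robo3 (0.109), Sema3d (0.0642), Sema4f (0.054) and Sema4g (0.0566) were lost. Dcc lost its call without Bern colon 4, Crick colon 2 or Crick SI 1 or 3 (0.0567 to 0.0732), Epha8 without Bern colon 2 or Crick SI 1, 2 or 3 (0.0592 to 0.0821), and Epha5 without Crick SI 1 or 3 (0.0519 to 0.0556). Epha6 lost it without Bern colon 4, Crick colon 1 or 2 or any Crick SI library (0.0544 to 0.127), and Robo3 without any 1 of 10 libraries (0.0514 to 0.0746): Bern colon 2, Bern SI 3 and 4, Crick colon 1, 3 and 4 and all Crick SI libraries. Without the libraries in doubt 6 members passed in place of 14, with Slit1 (0.151), Sema4f (0.193), Sema4g (0.111) and Sema4d (0.112) among those lost, and Epha8, at 0 in every Bern SI non-neuronal library, had a fitted value of 0.91 (adjusted p of 1), which is no bound. Without Crick SI non-neuronal 1 or 3 the count was 8. Sema3e was 18.2 CPM on average in colon and 39.8 CPM in SI non-neuronal nuclei and did not pass (-1.22 ± 0.47, adjusted p = 0.102), though it did without Bern SI non-neuronal 4 (0.0177).

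The neuronal marker sum moved in the same direction as those rises, with 124 to 1378 CPM in colon and 40.4 to 655 CPM in SI non-neuronal libraries. Of the 10 members that rose, 7 (Dcc, Epha5, Epha6, Epha8, Sema4d, Sema4f and Slit1) were also called higher in neuronal than in non-neuronal nuclei. That call was made for 24 of the 63 members tested and for 4723 of all 21521 genes. Lymphatic endothelial markers (558 to 1742 against 16.6 to 163 CPM) and epithelial markers (1455 to 11800 against 132 to 915 CPM) were also higher in colon non-neuronal libraries. The part of these cells in the differences was not tested.

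Whether the segment difference itself differed between the sorts was tested as an interaction over all 32 libraries. It passed for 14 of 63 members, 3 with a more positive colon difference in neuronal nuclei and 11 with a more negative one, against 6.48% of all genes. The median over all genes was -0.22, so values are shifted toward the negative side. Sema3e had the most positive value, 4.00 ± 0.65 (adjusted p = 0.000137): higher in colon among neuronal nuclei, with higher means in SI among non-neuronal nuclei. Sema3a (2.03 ± 0.43, adjusted p = 0.00355) and Slit2 (1.76 ± 0.34, adjusted p = 0.00114) were the other 2. The 11 negative values ran from -6.75 ± 1.14 for Epha8 to -2.01 ± 0.62 for Plxna1 (adjusted p of 0.000348 to 0.0447). They included Epha4 (-2.02 ± 0.46), Epha6, Ephb3, Ephb4, Sema3d, Sema4f, Sema4g, Slit1 and Unc5b. The Epha8, Ephb3 and Ephb4 values were each fitted with a group without counts and are no measure of size. In the Bern SI non-neuronal libraries Slit1 had 0, 1, 0 and 1 counts and Sema4f 2, 0, 1 and 1, so their sizes are poorly set. Unc5d, which rose in colon neurons, did not pass (-0.73 ± 0.76, adjusted p = 0.678), nor did Sema5a (-1.61 ± 0.61, adjusted p = 0.114). With limma-voom the calls of Sema3d (0.063), Sema4f (0.134) and Sema4g (0.0767) were lost. Without the libraries in doubt the calls of Epha8 (adjusted p of 1), Plxna1 (0.132), Sema4f (0.172) and Sema4g (0.166) were lost. Plxna1 lost its call without any 1 of 21 libraries (0.0511 to 0.136), that is, all but Bern colon non-neuronal 1 and 3, Bern colon neuronal 1, Bern SI non-neuronal 1, 2 and 4, Bern SI neuronal 2 and 3, Crick colon neuronal 4, Crick SI non-neuronal 2 and Crick SI neuronal 3. Sema4g lost its call without Bern colon non-neuronal 2 or Crick SI neuronal 2 (0.0506 to 0.0609). In the scatter of the segment differences in the 2 sorts these genes lie away from the diagonal.

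**Figure D4:**
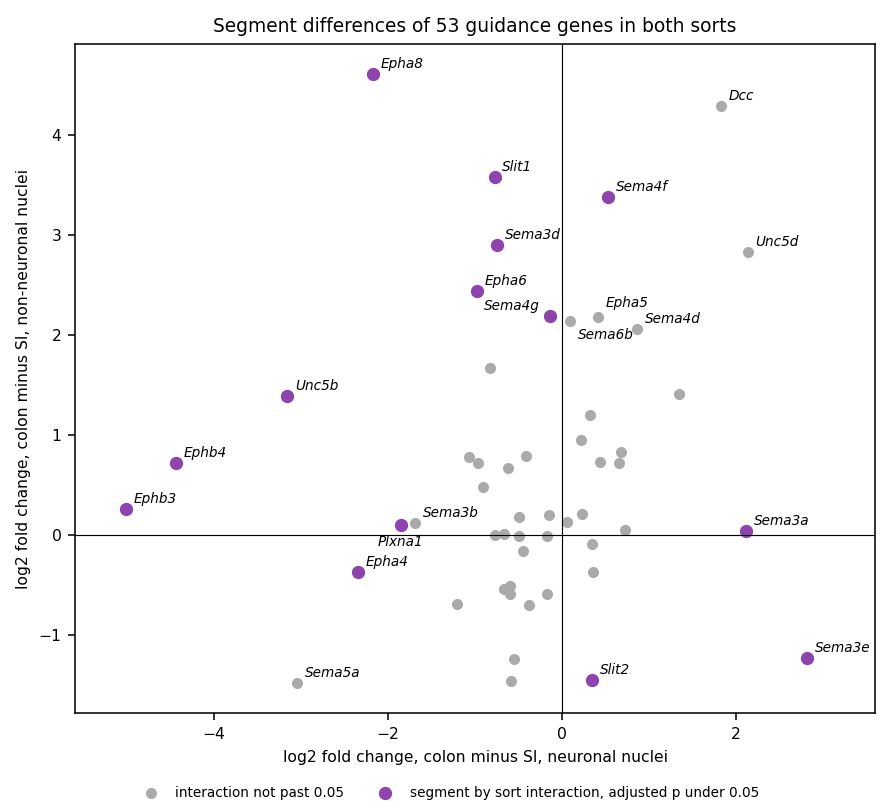
Log2 fold change of colon minus SI in neuronal nuclei (horizontal axis) against the same in non-neuronal nuclei (vertical axis) for the 53 members tested in both, with purple points for the 14 members whose interaction of segment and sort passed an adjusted p of 0.05 and grey points for the rest. Sema3e is at the lower right, at 2.81 and -1.22, and Epha8 at the upper left, at -2.17 and 4.61.

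Few of these genes differed between the facilities. In neuronal nuclei 2 of 55 members were higher in Bern and 0 lower, against 7.72% of all genes. Unc5a was 67.1 to 152 CPM in Bern colon and 94.2 to 158 CPM in Bern SI neurons and 23.9 to 71.1 and 36.7 to 116 CPM in the Crick groups, a rise of 1.098 ± 0.28 (adjusted p = 0.0184), with overlap in both segments. Sema4f rose by 1.09 ± 0.28 (adjusted p = 0.021), a call lost without Crick colon neuronal 1 or 2 or Crick SI neuronal 1 (0.0532 to 0.0537), and the count was 4 without Bern colon neuronal 4 and 5 with DESeq2. In non-neuronal nuclei 3 of 61 were higher and 2 lower in Bern, against 9.29% of all genes. Slit3 rose by 1.31 ± 0.30 (adjusted p = 0.00707), Epha7 by 1.05 ± 0.28 (0.0218, and 0.0524 without Crick SI non-neuronal 3) and Sema6d by 0.89 ± 0.27 (0.0377), while Sema3d fell by 2.61 ± 0.60 (0.008) and Sema4d by 1.59 ± 0.45 (0.0285). Sema6d lost its call without any 1 of 10 libraries (0.0501 to 0.0771): all 8 Crick non-neuronal ones, Bern colon 2 and Bern SI 4. Sema4d lost it without Crick colon 3 or 4 or Crick SI 3 or 4 (0.0547 to 0.105). Sema4d was 103 CPM in Crick colon 3, where the lymphocyte marker sum was 1025 CPM, against 92.2 to 168 CPM in the other Crick colon libraries and 36.6 to 58.2 CPM in Bern colon, and the part of those cells in the value was not tested. Sema3e did not pass in either sort (0.07 ± 0.40 in neuronal and 0.20 ± 0.46 in non-neuronal nuclei, adjusted p of 0.945 and 0.842), with a sign that changed with the setting. Without the libraries in doubt Slit3 (0.0626), Sema4d (0.185) and Sema6d (0.285) were lost. The non-neuronal count of 5 was 8 without Bern colon 2 or Bern SI 4, 3 without Crick colon 3 or 4 or Crick SI 4, and 2 without Crick SI 3. The neuronal marker sum was 3110 to 4295 CPM in Bern and 1770 to 2389 CPM in Crick neuronal libraries, without overlap, and its part in Unc5a and Sema4f was not tested. The facilities also differ in depth. Genes with a count numbered 15641 to 22406 per library in Bern and 25675 to 34994 in Crick, without overlap. Facility, depth, genes detected and handling therefore cannot be told apart.

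Of the pathway list, 2 of 11 cues and 2 of 34 transducers passed between colon and SI neurons, where 5.51% of all genes passed. Flrt2, a membrane protein that binds Unc5 receptors, rose by 1.61 ± 0.34 (adjusted p = 0.00567) from a mean of 9.09 to 28.03 CPM, while Rgma (-2.69 ± 0.73), Srgap1 (-1.16 ± 0.31) and Mical2 (-1.03 ± 0.23) fell. In the interaction of segment and sort Flrt2 had a value of 2.66 ± 0.62 (adjusted p = 0.00674), and Dscam, Cntn2, Crmp1, Pak1 and Srgap1 had negative values of -3.31 to -1.77. Between facilities, L1cam (1.299 ± 0.19 in neuronal and 1.01 ± 0.30 in non-neuronal nuclei), an adhesion molecule of axons, was higher in Bern in both sorts, as were Mical2 and Enah.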

How the data were processed

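Nuclear RNA was sequenced from 32 libraries in 8 groups of 4, as 75 bp single-end reads per the labels' protocols. The authors deposited expected counts per gene, and the headers carry the name of the gene-level output of RSEM, per the file headers. RSEM 1.3.0, STAR 2.5.2, DESeq2 1.10.1 and GRCm38 are named per the submitters' processing notes; their order, settings and the annotation release are not given in the sources used here. Of the values 10.8% were not whole, and all were rounded to whole counts before testing. Reads shared by related genes are split by estimation, which can blur near-identical members. Of 51912 identifiers 51719 matched GENCODE M21, which gave symbols and exon lengths.

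Tests used edgeR 4.0.16 (quasi-likelihood, filterByExpr, TMM factors over the libraries of each fit, Benjamini-Hochberg adjustment over all genes tested, threshold 0.05) in R 4.3.3. Standard errors are the log2 fold change divided by the square root of F. Levels are CPM from TMM factors over all 32 libraries. A group with no counts was set at a floor of 3 counts. Totals of 2394481 to 8350833 counts set the precision, and bounds cover counting error only. The sort and its interaction with segment were fitted on all libraries, the other comparisons on the 16 libraries of 1 sort. Alternatives were DESeq2 1.42.0, limma-voom (limma 3.58.1), relative log expression size factors, no filter, a replicate block, all 32 libraries in one fit and leaving out each library; leaving out the libraries in doubt and a block within facility and segment were added after seeing the data. Deviations of same-numbered libraries from their group means correlated above 0.1 in 4 of 4 pairs of Crick SI neuronal and non-neuronal libraries (0.13 to 0.525), so the numbers pair those groups, as a hint from the data; in no other set of 4 pairs did all pass.

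The members and lists were chosen with earlier results of these data known. Named genes were up to 12 per direction with the largest fold among those past 0.05 with a mean of at least 5 CPM on the higher side, and Sema3e; partners were up to 4 per direction. Other members named beside them, such as those with small folds or low levels, complete the account of each family and were named after their values were seen.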

Additional observations from a re-analysis of the deposited data

Results flagged for a closer look

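In 28 of 243 sets of 4 libraries, 1 library lay far from the other 3 by Dixon's criterion. For normally distributed values chance meets it in about 1 of 20 sets. It was applied here to untransformed CPM of named genes, so that rate is no yardstick for the 28. Values are in CPM, with the other 3 libraries in parentheses. Among neuronal libraries, Epha10 was 22.9 in Crick colon 4 (3.52 to 6.53), Epha4 5.73 in Bern colon 1 (9.13 to 9.59), Epha6 69.2 in Bern colon 4 (30.2 to 33.0), Epha7 37.9 in Crick colon 2 (28.7 to 30.1) and Nrp2 1228 in Bern colon 1 (460 to 482). Sema3b was 31.0 in Bern SI 1 (0 to 2.91), Sema3e 116 in Crick colon 4 (34.7 to 47.9), Sema4g 124 in Crick SI 2 (32.04 to 39.8) and Slit3 298.5 in Bern SI 1 (125 to 135).

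Among non-neuronal libraries, Epha2 was 29.3 in Bern colon 3 (1.02 to 3.33) and 28.4 in Bern SI 1 (3.24 to 5.15), and Epha3 was 27.1 in Bern colon 4 (1.28 to 3.75) and 47.7 in Bern SI 3 (4.86 to 11.5). Epha5 was 46.3 in Bern SI 1 (1.18 to 2.81), where the neuronal marker sum was 654.9 CPM against 40.4 to 81.8 CPM in the other 3. Epha8 was 18.1 (0 to 2.73) and Slit1 15.2 (1.54 to 3.07) in Bern colon 2, where the neuronal marker sum was 1279 CPM. The part of those nuclei in these values was not tested. Ephb4 was 44.5 in Bern SI 4 (0 to 5.03), Plxna3 54.3 in Crick colon 4 (16.5 to 19.8), Plxnb3 121 in Bern colon 1 (6.37 to 24.6) and Robo4 12.4 in Crick SI 2 (3.63 to 4.87). Sema3b was 54.5 in Crick colon 4 (16.3 to 18.2), Sema5a 128 in Crick colon 1 (61.0 to 72.2), Sema6d 114 in Crick colon 2 (95.2 to 96.7) and Slit1 14.1 in Crick colon 4 (2.76 to 4.65). Slit2 was low, at 168, in Crick SI 3 (224 to 230). Slit3 was 287 in Bern SI 4 (99.8 to 113), Unc5a 53.8 in Bern SI 2 (0.256 to 0.589) and Unc5c 31.35 in Crick SI 4 (9.73 to 11.6).

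The colon minus SI difference itself differed between neuronal and non-neuronal nuclei for 14 members (edgeR interaction, adjusted p under 0.05). On the log2 scale it was 4.00 for Sema3e, 2.03 for Sema3a and 1.76 for Slit2. It was -6.75 for Epha8, -5.32 for Ephb3, -5.21 for Ephb4, -4.59 for Unc5b, -4.37 for Slit1 and -3.67 for Sema3d. The remaining values were -3.44 for Epha6, -2.86 for Sema4f, -2.35 for Sema4g, -2.02 for Epha4 and -2.005 for Plxna1. Those of Epha8, Ephb3 and Ephb4 were fitted with a group without counts and are no measure of size. Those of Slit1 and Sema4f were fitted with a group of at most 2 counts per library and are poorly set in size.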

How the results depend on the processing

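Of 6358 values of named genes under alternatives, 6072 kept direction and call, 277 lost the call, 1 gained it and 8 changed sign. Counts of members called that moved by over 1.5 times were as follows, and the cause was not tested. Members called in all 4 strata went from 13 to 20 with limma-voom. Colon against SI in Bern neurons went from 12 to 6 with limma-voom, and in Crick from 4 to 7 with DESeq2. Colon against SI in non-neuronal nuclei went from 14 to 6 without the libraries in doubt. Between facilities, the neuronal count went from 2 to 5 with DESeq2, and the non-neuronal count from 5 to 8 with DESeq2, 12 with limma-voom, 10 without the filter and 3 without the libraries in doubt. Leaving out 1 library gave 46 to 50 members for the sort, 12 to 15 for all 4 strata, 13 to 16 for the segments in neurons, 7 to 12 in Bern and 3 to 5 in Crick, and 8 to 17 in non-neuronal nuclei. It gave 1 to 4 and 2 to 8 for the facilities, 12 to 17 for segment by sort and 0 for segment by facility. Sema3e between facilities changed sign in neuronal nuclei with limma-voom (-0.14) and without Crick SI 2 (-0.028), which is also the fit without the libraries in doubt. It also did so without Bern colon 4 (-0.08), Bern SI 2 (-0.12), Bern SI 3 (-0.12) or Crick colon 3 (-0.035). Its highest value without 1 library was 0.31. In non-neuronal nuclei its sign changed with limma-voom (-0.25).

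Same-numbered libraries correlated above 0.1 in 13 of 48 pairs, all of them in Crick. Only for Crick SI neuronal with non-neuronal libraries did all 4 pairs pass, and there neither block ended a member call; Crick colon had 3 of 4. With the replicate block within facility and segment the counts were 47 for the sort, 18 for all 4 strata and 14 for segment by sort, with Sema5b (0.0944) and Unc5b (0.087) lost for the sort and Plxna1 (0.107), Sema3d (0.0595) and Sema4f (0.0919) for segment by sort. With the replicate block the counts were 49 for the sort, 17 for all 4 strata, 12 for the segments in neurons, 6 in Bern, 3 in Crick, 8 in non-neuronal nuclei, 2 and 4 for the facilities, 13 for segment by sort and 0 for segment by facility, and 18 of 32 libraries correlated best with their own number. With it the Crick colon call of Sema3e (0.0535, against 0.0249 with the block within segment) and the Crick segment call of Slit3 (0.0765) were lost.

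Over all genes, counts moved by over 1.5 times as well. Segments in neurons went from 960 to 1905 (DESeq2) and 1652 (no filter), in Bern from 727 to 2096, 1411 and 384 (block), and in Crick from 159 to 383, 304 and 100, with 253 by limma-voom and 93 without the libraries in doubt. Facilities in neurons went from 1344 to 2663 (DESeq2) and 2155 (no filter), and in non-neuronal nuclei from 1780 to 4610 and 6373, with 3122 by limma-voom and 745 without the libraries in doubt. Segments in non-neuronal nuclei went from 1787 to 3190 (DESeq2), 2862 (one fit) and 764 (without the libraries in doubt), segment by sort from 1395 to 2286 (DESeq2), and segment by facility from 1 to 47 (DESeq2), 93 (no filter) and 2 (limma-voom). Low counts limit members under 5 CPM.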
